A study of Oryza sativa with 3 samples.

Results

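The SLR1 and SD1 loci of rice held 5 of the 1499 regions in the 3 deposited ChIP-seq lists. SLR1 (LOC_Os03g49990) encodes the rice DELLA protein and SD1 (LOC_Os01g66100) encodes a GA20-oxidase. The members were chosen by position, as every region that overlaps chromosome 3 from 28505000 to 28522000 or chromosome 1 from 38375000 to 38392000, and the loci were picked from lists whose regions were already known. Their presence in the lists is therefore a description and was not tested. Replicate 1 held 2 of these regions among 440, replicate 2 held 2 among 620, and replicate 3 held 1 among 439.

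Gibberellin is a plant hormone that promotes stem growth. DELLA proteins hold back growth, and binding of gibberellin to its receptor GID1 leads to their breakdown, so SLR1 sits at the receiving end of the pathway. GA20-oxidases act earlier, in the synthesis of active gibberellin, and loss-of-function alleles of SD1 give the semi-dwarf stature of many modern rice varieties. The immunoprecipitated protein is the product of ngr2, an allele of the growth-regulating factor gene GRF4, and SLR1 is known to bind GRF4 and to limit its activity as a transcriptional activator.

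All samples came from the same kind of material. The plants had the genotype WYJ7-dep1-1/p35S::Flag-ngr2, and their seedlings, grown in water culture to an age of 2 weeks, were fixed and immunoprecipitated with an antibody to the Flag tag. WYJ7 is a japonica rice variety, dep1-1 is an allele of DEP1, which encodes a G protein gamma subunit, and every sample carried it. The 35S promoter drives strong expression in most plant tissues, so the tagged protein was not under the control of its own promoter and whole seedlings mix many cell types. The 3 samples form 1 group, and no input or untagged library was analysed here. Separate plants or cultures are not named for the samples, so their spread may be technical. The title of replicate 3 does not name the tag, unlike the titles of replicates 1 and 2, and the values below are given per sample for this reason.

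The window limits and gene names are those of the MSU7 rice annotation. The sources used here name no build for the lists themselves. They name their chromosomes Chr1 to Chr12, with single regions on ChrUn in replicate 1 and ChrSy in replicate 2, names that the MSU assembly also uses. The gene assignment rests on the lists having that build, and no gene model of it was used here. Where the regions lie relative to the transcription start, the coding sequence or the promoter of either gene was therefore not analysed here. A list of regions does not tell DNA of the seedlings' chromatin from plasmid DNA that carries a coding sequence, and which of these the widths and scores below reflect was not tested. The same holds for the other gibberellin genes and for the sequences of the regions. Positions are 1-based, in the coordinates of the lists.

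At SLR1, the gene of the pathway's repressor, each sample listed a single long region. In replicate 1 it ran from 28512781 to 28514750 on chromosome 3 and was 1970 bp wide. In replicate 2 it ran from 28512866 to 28514773 and was 1908 bp wide. In replicate 3 it ran from 28512793 to 28514793 and was 2001 bp wide. The widths differed little between samples, at 1960 ± 47.4 bp (SD, n = 3). Merged, the regions spanned 2013 bp from 28512781 to 28514793, of which 1885 bp (93.6%) lay in all 3 samples. The labels give an average chromatin fragment of about 500 bp, and the SLR1 regions were 3.94, 3.82 and 4.00 times that size in replicates 1, 2 and 3. No other region lay in the 17001 bp window in any list.

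At SD1, the gene of the synthesis enzyme, replicates 1 and 2 listed a short region and replicate 3 listed none. In replicate 1 it ran from 38382380 to 38382662 on chromosome 1 and was 283 bp wide. In replicate 2 it ran from 38382389 to 38382731 and was 343 bp wide. Both were narrower than the average fragment in the labels, at 0.566 and 0.686 times its size. Merged, they spanned 352 bp from 38382380 to 38382731, and 274 bp of this (77.8%) was common to both. The SD1 regions covered 1.67% and 2.02% of their window in replicates 1 and 2. The SLR1 regions covered 11.6%, 11.2% and 11.8% of a window of the same length in replicates 1, 2 and 3. In replicate 3 the nearest listed regions ended 111.2 kb before the SD1 region and started 484.8 kb after it. The read depth is unknown, so a region that is not listed cannot be called absent.

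**Figure D1:**
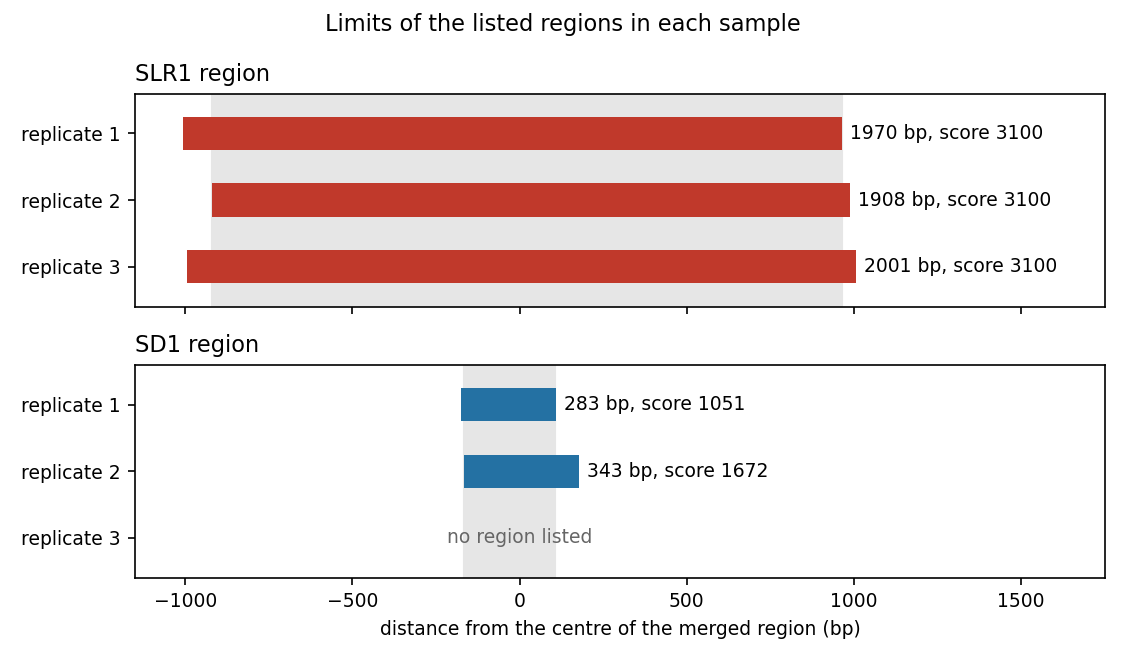
Each bar is a listed region, drawn to scale against the distance in bp from the centre of the merged region, with 1 row per sample and the part common to the samples that hold it in grey. The SLR1 bars are 1970, 1908 and 2001 bp long in replicates 1, 2 and 3, and the SD1 bars are 283 and 343 bp long in replicates 1 and 2, with none in replicate 3.

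The SLR1 region had the highest score that the lists hold. The score is the peak caller's value for each region. Its unit is not given in the files, and it was used mainly to rank regions within a list. The SLR1 region scored 3100 in replicates 1, 2 and 3, the value at which the scores stop. It shared the first place with other regions, being 1 of 3 at this score in replicate 1 (0.682% of the list), 1 of 10 in replicate 2 (1.61%) and 1 of 3 in replicate 3 (0.683%). Since tied regions cannot be ordered, its rank lay between 1 and 3, between 1 and 10, and between 1 and 3 in replicates 1, 2 and 3. After merging, 10 regions of the series reached 3100 in at least 1 sample, and 2 of them did so in all 3. Besides the SLR1 region, this was a region of 858 bp on chromosome 11.

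The SD1 region ranked lower, yet within the upper part of both lists that held it. In replicate 1 it scored 1051 and ranked 16 of 440, with 96.4% of the list scoring lower. In replicate 2 it scored 1672 and ranked 19 of 620, with 96.9% scoring lower. The median score was 85.1 in replicate 1 and 89.9 in replicate 2. Scores of different lists are not on a shared scale, so the values of the samples were not compared with each other.

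The members differed in how score went with width. By width the SLR1 region ranked 15, 15 and 14 in replicates 1, 2 and 3. It was 6.15 times as wide as the median region of replicate 1, 7.74 times in replicate 2 and 7.70 times in replicate 3. Of the 14 wider regions in replicate 1, 12 lay in dense loci, defined as chains of at least 10 merged regions with gaps of up to 20 kb. In replicate 2 this held for 10 of 14 wider regions and in replicate 3 for 11 of 13. Most of the wider regions scored far lower than the SLR1 region, with median scores of 466, 806 and 473 in replicates 1, 2 and 3. The highest score among them was 2831 in replicate 1, 3100 in replicate 2 and 595 in replicate 3. Dense loci also held many less wide regions. Of the regions wider than that of SD1, 133 of 241 in replicate 1 and 120 of 202 in replicate 2 lay in them. These counts include the regions wider than that of SLR1. The share over each whole list was not computed, so these counts have no base to be set against.

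The SD1 region combined a high score with a moderate width, near the list median in replicate 1 and above it in replicate 2. In these lists 45.0% and 66.8% of the regions were narrower. It was 0.883 times as wide as the median region of replicate 1, where it ranked 242 by width, and 1.39 times in replicate 2, where it ranked 203. Among the 199 regions of replicate 1 that were no wider, its score ranked 2, below 1477. Among the 418 such regions of replicate 2 its score ranked 4, and the highest was 2704. Against only the regions with no other within 20 kb, the SD1 region was wider than most. By width it ranked 48 of 150 in replicate 1 and 33 of 182 in replicate 2, where the medians were 190.5 and 170.5 bp.

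**Figure D2:**
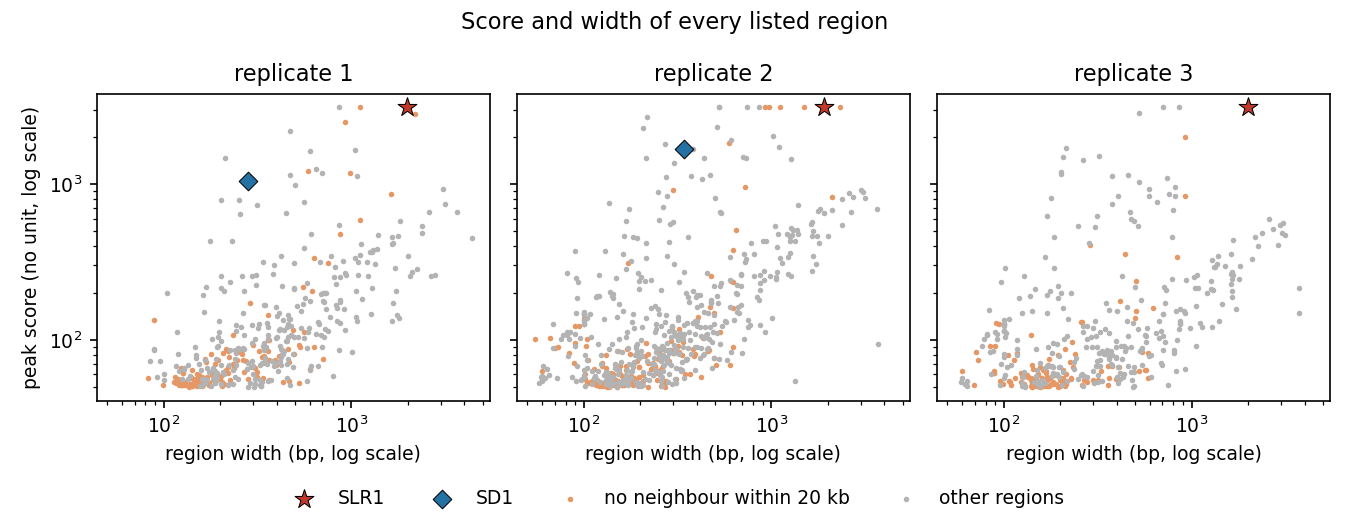
Every listed region is a point at its width in bp and its peak score, both on log axes, with 1 panel per sample. The SLR1 region (star) stands at 3100 and between 1908 and 2001 bp in all panels. The SD1 region (diamond) stands at 1051 and 283 bp in replicate 1 and at 1672 and 343 bp in replicate 2. The median widths of these lists are 320.5 and 246.5 bp. It is not in the panel of replicate 3.

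Neither region had another merged region of the series within 20 kb. The nearest merged regions of the series lay 187.9 kb before and 203.3 kb after the SLR1 region, and 59.6 kb before and 484.8 kb after the SD1 region. Within single lists, the gap before the SLR1 region was 1092 kb in replicates 1 and 3 and 188.0 kb in replicate 2, and the gap after it was 203.3 kb in all 3. The gap before the SD1 region was 59.6 kb in replicate 1 and 59.7 kb in replicate 2, and the gaps after it were 728.9 and 728.8 kb. The listed regions next to them on either side scored between 53.6 and 144, far below the members in each list. Of the 853 merged regions of the series, 363 (42.6%) likewise had no other within 20 kb.

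Set among these 363 isolated regions, the SLR1 region was long and shared by more samples than most. Its merged width ranked 4 of 363, and that of the SD1 region ranked 51. The 3 longer ones lay on chromosomes 5, 7 and 9. The longest, of 2315 bp on chromosome 5, was listed in replicates 1 and 2, with scores of 2831 and 3100. The other 2, of 2090 and 2031 bp, scored at most 859 and 478. The one of 2031 bp on chromosome 9 was merged from shorter listed regions, and the one scoring 478, in replicate 1, was 871 bp wide. Within single lists, 1 isolated region of replicate 1 and 2 of replicate 2 were wider than the SLR1 region. In replicate 3 the SLR1 region was the widest isolated region of 140 and the only one at 3100. In replicate 1 it was 1 of 2 isolated regions at 3100, and in replicate 2 it was 1 of 6. The SD1 region ranked 7 by score among the 150 isolated regions of replicate 1 and 8 among the 182 of replicate 2.

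The SLR1 region was held by all 3 samples, as were 199 of 853 merged regions (23.3%) and 27 of the 363 isolated ones (7.44%). The SD1 region was held by replicates 1 and 2 and not listed in replicate 3, as were 121 of 853 merged regions (14.2%) and 32 of the 363 isolated ones (8.82%). Both members were held by at least 2 samples, against 45.7% of all merged regions and 20.1% of the isolated ones. These shares are given as background, since the loci were picked with the lists known. High-scoring regions without a counterpart in replicate 3 were not unusual. In replicate 1, 15 other regions scored at least as high as the SD1 region, and 5 of them (33.3%) overlapped no region of replicate 3. In replicate 2 this held for 5 of 18 (27.8%). The share over all regions of each list was not computed, so these counts cannot be called high or low. Among the isolated regions of such scores, 3 of 6 in replicate 1 and 3 of 7 in replicate 2 had an overlapping region in replicate 3.

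The limits of the regions were close between samples without coinciding. The starts of the SLR1 region spread over 85 bp and its ends over 43 bp. Replicates 1 and 3 had the closest starts, 12 bp apart, and replicates 2 and 3 the closest ends, 20 bp apart. Replicates 1 and 2 were 85 bp apart at the start and 23 bp at the end. The SD1 region of replicates 1 and 2 differed by 9 bp at the start and by 69 bp at the end. No limit of either member matched between samples to within 1 bp.

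The overlap of each member, as shared over combined length (Jaccard index), was set beside that of other isolated regions. For the SLR1 region it was 0.946 in replicates 1 and 2, 0.973 in replicates 1 and 3 and 0.954 in replicates 2 and 3. The medians over all overlapping isolated pairs, members included, were 0.813, 0.821 and 0.863 in the same order. The SLR1 value was above 55 of 66 other pairs in replicates 1 and 2, above 24 of 26 in replicates 1 and 3 and above 30 of 40 in replicates 2 and 3. A given distance between limits lowers this index less in a long region than in a short one. In bp, the starts of other pairs were closer than those of SLR1 in 51 of 66, 10 of 26 and 31 of 40 pairs, and the ends in 25 of 66, 13 of 26 and 22 of 40 pairs. For the SD1 region the index was 0.778 in replicates 1 and 2, above 28 of 66 other pairs, and 18 of these pairs had closer starts and 46 had closer ends.

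**Figure D3:**
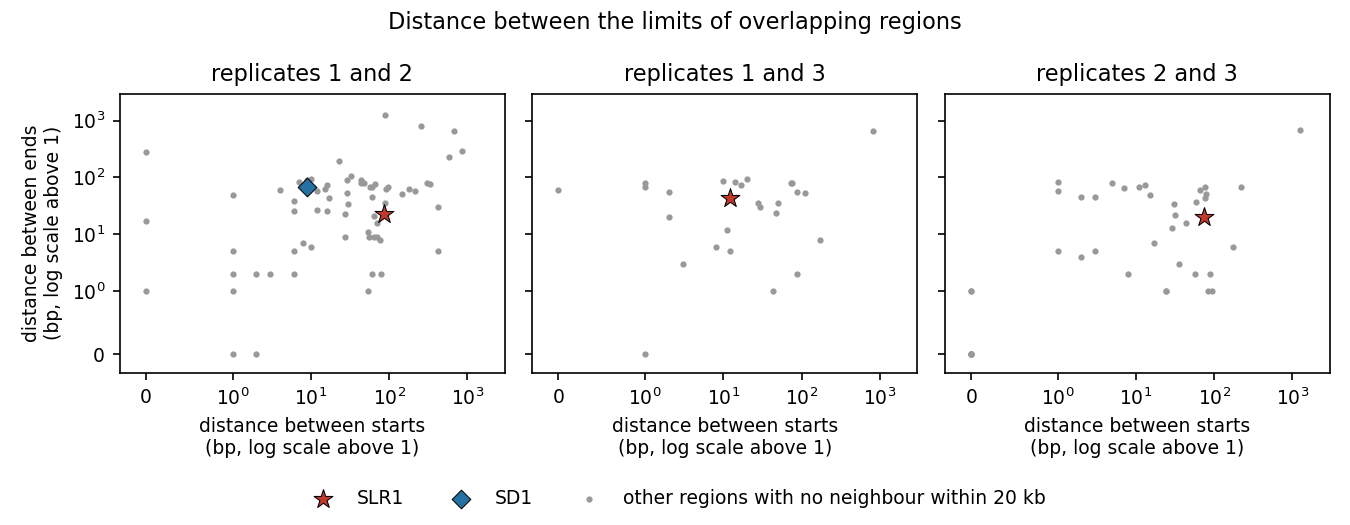
Each point is a pair of overlapping regions with no neighbour within 20 kb, at the distance in bp between its starts (horizontal) and between its ends (vertical), with axes linear below 1 bp and logarithmic above and 1 panel per pair of samples. The SLR1 pairs (stars) lie at 12 to 85 bp between starts and 20 to 43 bp between ends, and the SD1 pair (diamond) lies at 9 and 69 bp, all within the range of the other pairs.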

How the data were processed

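Each sample has a deposited BED list of 5 columns, with chromosome, start, end, peak name and score. MACS, a program that calls peaks, appears in the peak names. The sources used here do not give its version and settings, the control library, the alignment or the build. No unit is stated for the score that the authors deposited, and it was used mainly to rank regions within a list. Read depth is unknown, so no counting interval could be given. Replicates were numbered in the order of their records.

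Positions were made 1-based. Regions listed in different samples were merged where they overlapped by at least 1 bp, and merged regions were chained over gaps of up to 20 kb. The merging code was checked on simulated lists. The members, windows and lists of genes were chosen with earlier results of these data known, and both SLR1 and SD1 were named with every region in their windows. No test was made. The other gibberellin genes, the genomic sequence and the annotation of the lists' build were not used here, because the RefSeq gene table at hand is of another assembly. Alternatives were other joins, windows, rankings and gaps, and leaving out each replicate. Python 3.11.15, pandas 2.3.3, NumPy 2.4.6 and Matplotlib 3.10.9 were used.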

Additional observations from a re-analysis of the deposited data

How the results depend on the processing

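Of 37 values under alternative settings, 25 were the same as the reported value within a set limit and 12 moved. The limit was a factor of 1.5 for counts, 1 SD for widths and no shift for ranks. Many of these outcomes were fixed by values given above, so the tally does not measure how robust the results are. Each window held 1 merged region when it was widened or narrowed by 5 kb on each side, when regions within 500 bp were joined, and when any 1 replicate was left out. The count of 2 members held by at least 2 samples stayed at 2 with a reciprocal overlap of 50%, with joined regions and above each list's median score. The overlaps of the members between samples covered at least 79.9% of each region, and their scores were far above the list medians. These outcomes were therefore fixed as well. Leaving out a replicate in turn gave 1 or 2 members, with 1 without replicate 1 or without replicate 2, because a single remaining list held the SD1 region. The count held by all 3 samples stayed at 1 under the same 3 settings. Both members also stood alone with gaps of 10 and 50 kb, an alternative chosen after seeing the data. Ranks moved with the treatment of ties at SLR1 (2, 5.5 and 2 in replicates 1, 2 and 3 by middle rank) and when regions were ranked by width, which gave 15, 15 and 14 for SLR1 and 242 and 203 for SD1. The SLR1 width of 1960 bp moved by more than its SD of 47.4 bp (n = 3). It became 2013 bp for the merged region and 1885 bp for the common part. The SD1 width, a mean of 313 bp, stayed within its SD of 42.4 bp (n = 2) at 352 and 274 bp. Each limit is that region's own SD, from few values, so these labels do not tell which width was steadier. The alternative with coding exons was not run, because no gene model of the lists' build was used. No paired analysis was possible because there is only 1 group of samples. Unknown depth limits any statement on the SD1 region in replicate 3.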
